A study of Mus musculus with 9 samples.

Results

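The genes of antigen presentation were examined in back skin of imiquimod-treated mice. They were the 35 genes of the deposited table whose name starts with H2-, the mouse major histocompatibility complex (MHC), and 20 further genes chosen by name, 55 of 29205 genes in all. The set held 25 class I heavy chains, 8 genes of class I peptide loading and its regulation, 10 class II chains, 3 genes of class II processing, 3 of costimulation and 6 of dendritic cells. Of the 55 genes, 40 lie on chromosome 17, and 7 are pseudogenes in the annotation. All mice were male BALB/c of 6 to 8 weeks with shaved and depilated backs, and skin was taken on day 13. The control group (Control) was left blank, with no cream. The IMQ group had 62.5 mg of 5% imiquimod cream a day on the back for 5 days, a treatment that gives psoriasis-like skin. The LYS group had the same cream and Longkui Yinxiao soup, a decoction of botanical drugs given by gavage at the higher of the study's doses. Each group had 3 libraries of whole skin RNA. The sources name no vehicle cream for the control group and no gavage for the IMQ group. Nor do they say that the replicates came from separate animals, so that the p-values measure the spread between these samples.

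MHC class I molecules pair a heavy chain with beta-2 microglobulin and carry peptides cut by the proteasome and pumped into the endoplasmic reticulum by the TAP transporter, and nearly all nucleated cells make them. Class II molecules pair an alpha with a beta chain, load peptides of endosomal origin with the help of the invariant chain Cd74 and of H2-DM, and are made chiefly by dendritic cells, Langerhans cells, macrophages and B cells. NLRC5 drives transcription of class I genes and CIITA that of class II genes. In skin, Langerhans cells of the epidermis and dendritic cells of the dermis take antigen to T cells, which also need the costimulatory ligands CD80 and CD86.

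H2-K1 and H2-D1 are the classical class I heavy chains that the deposited table holds, and H2-L, also classical, has no row in it. Their promoters, those of a pair of class II chains and that of Tap1 are printed to set the classes side by side. Each is the RefSeq window from 250 bases before to 50 after the transcription start, on the gene's own strand, in GRCm38.p6, and for H2-K1 the first of 2 windows is shown. Capitals mark exact matches, on either strand, to short runs of the H2-K1 window that were chosen after the windows had been read. These were GGGGATTCCC (the enhancer A element of class I promoters, an NF-kappaB motif), GTTTCACTTC (the interferon response element next to it) and CTGATTGG or its complement CCAATCAG. CCAATCAG, marked in the H2-K1, H2-D1 and Tap1 windows, holds a CCAAT sequence in the forward direction. CTGATTGG, marked in the H2-Aa and H2-Eb1 windows, holds it reversed. Unmarked CCAAT sequences also stand reversed in the H2-K1 and H2-D1 windows and forward in the H2-Eb1 window. The direction thus does not separate the classes.
H2-K1, chr17:34000298-34000597, minus strand: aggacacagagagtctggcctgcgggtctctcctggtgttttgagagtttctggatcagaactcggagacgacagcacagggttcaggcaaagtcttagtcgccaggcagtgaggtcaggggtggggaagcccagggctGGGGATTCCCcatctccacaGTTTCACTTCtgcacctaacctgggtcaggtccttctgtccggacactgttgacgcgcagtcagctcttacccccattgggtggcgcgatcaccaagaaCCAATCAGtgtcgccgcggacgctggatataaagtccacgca
H2-D1, chr17:35262844-35263143, plus strand: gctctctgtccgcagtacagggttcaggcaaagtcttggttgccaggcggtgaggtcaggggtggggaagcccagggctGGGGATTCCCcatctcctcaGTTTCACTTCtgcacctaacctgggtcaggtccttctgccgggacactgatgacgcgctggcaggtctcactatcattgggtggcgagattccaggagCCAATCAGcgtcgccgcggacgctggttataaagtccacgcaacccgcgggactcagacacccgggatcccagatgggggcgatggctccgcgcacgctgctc
H2-Aa, chr17:34287774-34288073, minus strand: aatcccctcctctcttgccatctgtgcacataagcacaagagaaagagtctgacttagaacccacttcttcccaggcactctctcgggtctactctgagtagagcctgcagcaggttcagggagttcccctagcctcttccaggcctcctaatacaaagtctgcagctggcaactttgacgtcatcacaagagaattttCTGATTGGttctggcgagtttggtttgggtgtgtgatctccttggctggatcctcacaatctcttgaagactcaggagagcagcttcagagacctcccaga
H2-Eb1, chr17:34305617-34305916, plus strand: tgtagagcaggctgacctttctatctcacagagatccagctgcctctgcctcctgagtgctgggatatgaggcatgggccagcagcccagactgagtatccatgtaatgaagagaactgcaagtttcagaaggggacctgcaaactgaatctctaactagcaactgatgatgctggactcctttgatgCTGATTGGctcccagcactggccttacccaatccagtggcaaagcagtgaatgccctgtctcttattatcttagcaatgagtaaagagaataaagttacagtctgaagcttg
Tap1, chr17:34187306-34187605, plus strand: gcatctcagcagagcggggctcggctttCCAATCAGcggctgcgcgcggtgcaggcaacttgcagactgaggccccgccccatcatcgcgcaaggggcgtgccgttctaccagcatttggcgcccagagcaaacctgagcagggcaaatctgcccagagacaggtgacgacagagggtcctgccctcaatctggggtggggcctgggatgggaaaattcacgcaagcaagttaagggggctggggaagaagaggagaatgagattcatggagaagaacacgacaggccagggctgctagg

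Of the 55 genes, 40 had a window. H2-K1 matches by construction, as the runs were taken from its window. No run was taken from a class II window, so the counts do not weigh the classes evenly. GGGGATTCCC stood in 4 of 18 class I heavy chain promoters (H2-K1, H2-D1, H2-Q6 and H2-Q7), in 0 of 8 class II chain promoters and in 0.107% of all 32851 windows. GTTTCACTTC stood in 7 of the 18 class I promoters, in 0 of the 8 class II promoters and in 0.140% of all windows. CTGATTGG or CCAATCAG, counted on either strand, was found in both classes, in 9 of 18 class I, 4 of 8 class II and 4.10% of all windows. The Tap1 window overlaps by 275 bp that of Psmb9, a proteasome subunit transcribed from the other strand. These are matches of letters in the reference, not binding measured in this skin.

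The libraries held 14658645 to 19609878 counts, of which the 55 genes took 0.305% to 0.614%. Over all genes, the library LYS 1 had a mean correlation of 0.984 with the IMQ libraries and 0.977 with the other LYS libraries (log2(FPKM + 1), across genes), so results that rest on it are also given without it. In whole skin, fewer cells of a type and less RNA per cell cannot be told apart. The summed FPKM (fragments per kilobase of gene, relative to the library total) of 4 keratinocyte markers ran from 2013 to 3657 in the control group, 12228 to 13892 in the IMQ group and 6809 to 10864 in the LYS group, and that of 4 fibroblast markers from 1807 to 2387, 204 to 729 and 627 to 1436. The 3 hair follicle keratins summed to 883 to 2046 FPKM in the control group, 0.229 to 0.512 in the IMQ group and 0.181 to 0.547 in the LYS group. The 3 leukocyte markers summed to 58.8 to 85.4, 78.7 to 89.2 and 129 to 187 FPKM in the same order. Among antigen-presenting cells, 6 macrophage markers summed to 459 to 622, 195 to 256 and 375 to 1019 FPKM. The 5 markers of type 2 conventional dendritic cells (cDC2), with Cd209a among them, summed to 39.99 to 54.2, 10.2 to 13.9 and 21.003 to 43.7 FPKM, and the 3 Langerhans markers, with Cd207 among them, to 82.4 to 96.3, 121 to 155 and 64.9 to 124 FPKM. The members of a list did not always move as one. Among the leukocyte markers, Coro1a went from 26.1 ± 7.19 FPKM in control to 49.4 ± 8.12 in IMQ skin (SD, n = 3). Laptm5 went from 38.1 ± 7.4 to 32.1 ± 2.23 FPKM and Ptprc from 3.96 ± 1.04 to 3.57 ± 0.372 FPKM. The members of the Langerhans list also parted. Epcam, which is also a gene of epithelia, went from 48.4 ± 11.7 FPKM in control to 116 ± 17.4 in IMQ skin, Cd207 from 10.1 ± 1.76 to 12.1 ± 2.39 and Cd1d1 from 29.7 ± 6.71 to 6.34 ± 2.88 (SD, n = 3). The 4 B cell markers reached at most 10.9 FPKM, and Cd79a and Ms4a1 among them were at 0 in IMQ 2, IMQ 3 and LYS 1. The part of these shifts in the results was not tested.

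Per length, B2m had the highest level of the 55 genes in the control group, at 1809 ± 249 FPKM (SD, n = 3). The classical heavy chains H2-D1 and H2-K1 stood at 408 ± 48.2 and 147 ± 12.5 FPKM, and the nonclassical chains were led by H2-T23 at 47.998 ± 3.97 FPKM. Among class II genes, the invariant chain Cd74 stood at 302 ± 46.8 FPKM and H2-Ea, an alpha chain described after its values were seen, at 223 ± 37.4 FPKM, with overlapping mean ± SD. The chains H2-Aa (78.2 ± 11.8 FPKM), H2-Eb1 (76.6 ± 13.3 FPKM) and H2-Ab1 (71.02 ± 9.37 FPKM) were within 1 SD of each other. The peptide editor H2-DM was lower, with H2-DMa at 10.8 ± 2.06 FPKM, and its inhibitor H2-O lower still, with H2-Oa at 0.319 ± 0.133 and H2-Ob at 0.306 ± 0.103 FPKM. H2-Ea is a pseudogene in the reference because C57BL/6 mice do not express it, whereas BALB/c mice do. Class I genes differ between these strains and resemble each other, so reads can be lost or shared between paralogs, and the levels of the H2-K, H2-D, H2-Q and H2-T genes are uncertain to that extent.

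Imiquimod skin was first set against untreated skin. The class I genes H2-K1, H2-M3, H2-T24, B2m and Tapbp fell, and no class II gene was called lower. With library totals as the only scaling and with limma on FPKM, Ctss and H2-DMb1 of class II were called lower too, and H2-DMb1 also without IMQ 3. A gene was called at an edgeR adjusted p under 0.05 with an absolute log2 fold change over 0.58. Of all 15976 genes tested 51% were called, and of the 45 members tested 13 were called (28.9%), a smaller share. Among the members, 7 rose (Cd80, H2-K2, Ciita, Nlrc5, H2-DMb2, Cd207 and Tap1) and 6 fell (the above 5 and Cd209a), against 24.1% and 26.9% of all genes. The groups did not overlap in 20 of the 45 members (44.4%), against 70% of all genes. Of 25 class I genes tested 3 rose and 5 fell, with a median log2 fold change of -0.45. Of 11 class II genes 2 rose and 0 fell, with a median of 0.06, and the median of all genes tested was -0.06.

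H2-K1 (ENSMUSG00000061232, chr17:33996017-34000347), a classical heavy chain that presents peptides to CD8 T cells, was at 404, 398 and 326 CPM in the control libraries, 231, 240.5 and 239.5 CPM in the IMQ libraries and 217, 284 and 277 CPM in the LYS libraries. Coordinates are those of GENCODE M21 on GRCm38. CPM here are counts relative to the library total after scaling between libraries by TMM (trimmed mean of M values). All IMQ libraries lay below the control libraries, and the log2 fold change of IMQ against control was -0.67 (SE 0.13, adjusted p = 0.00282). H2-D1, the other classical chain of the deposited table, was at 952, 1048 and 765 CPM in the control libraries, 738, 810.3 and 801 CPM in the IMQ libraries and 702, 864 and 925 CPM in the LYS libraries. Its groups overlapped, and the log2 fold change of -0.24 (SE 0.17, adjusted p = 0.237) did not pass the test. With library totals as the only scaling H2-D1 was called lower, at -0.69 (adjusted p = 0.00456).

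H2-M3 (ENSMUSG00000016206, chr17:37270220-37274484), a nonclassical chain that presents N-formylated peptides, was at 14.1, 13.3 and 14.9 CPM in the control libraries, 8.56, 6.63 and 6.15 CPM in the IMQ libraries and 9.49, 16.3 and 17.3 CPM in the LYS libraries. The IMQ values lay below the control values without overlap, and the log2 fold change was -0.99 (SE 0.18, adjusted p = 0.00221). H2-T24 (ENSMUSG00000053835, chr17:36005695-36020560), a nonclassical chain, was at 21.5, 21.8 and 24.6 CPM in the control libraries, 11.2, 10.7 and 8.86 CPM in the IMQ libraries and 8.03, 22.1 and 32.4 CPM in the LYS libraries. The IMQ values again lay below all control values, with a log2 fold change of -1.15 (SE 0.15, adjusted p = 0.000441), and the LYS values spanned both groups. H2-T23, whose product Qa-1 is a ligand of NK cell receptors, was at 122, 115 and 125 CPM in the control libraries, 106, 131 and 131 CPM in the IMQ libraries and 93.9, 127 and 160.1 CPM in the LYS libraries, with overlapping groups and a log2 fold change of 0.01 (SE 0.12, adjusted p = 0.931).

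H2-K2, an annotated pseudogene beside H2-K1, was the only heavy chain called higher in IMQ against control. It was low, at 0.531, 1.06 and 1.07 CPM in the control libraries, 1.64, 3.28 and 2.78 CPM in the IMQ libraries and 1.40, 2.03 and 1.20 CPM in the LYS libraries, and its log2 fold change was 1.50 (SE 0.41, adjusted p = 0.0129). The other 8 heavy chains of the H2-Q and H2-T regions that were tested, H2-T24 apart, were not called, but H2-Q1, H2-Q4, H2-Q6, H2-Q7 and H2-T10 were called lower with library totals alone and with limma on FPKM. Leaving out 1 library also gave such a call for H2-Q1 (without Control 3), H2-Q4 (without Control 2, Control 3 or IMQ 1) and H2-Q6 and H2-T10 (without IMQ 3). Among them H2-Q4, singled out after its values were seen, was lower in all IMQ libraries than in any control library, with a log2 fold change of -0.57 (SE 0.11, adjusted p = 0.00267) just inside the fold limit. H2-M9, H2-M5 and H2-Bl were low and not called, apart from H2-M5, lower without IMQ 3 (-1.35, adjusted p = 0.0394), and H2-Bl, lower with limma on log2(FPKM + 0.1). H2-M9 was at 1.69, 1.43 and 1.41 CPM in the control libraries, 1.76, 4.47 and 1.61 CPM in the IMQ libraries and 1.05, 5.42 and 5.96 CPM in the LYS libraries. H2-M5 was at 2.08, 1.15 and 2.19 CPM in the control libraries, 0.729, 0.670 and 2.27 CPM in the IMQ libraries and 0.558, 0.508 and 0.115 CPM in the LYS libraries. H2-Bl, a polymorphic pseudogene in the annotation, was at 1.16, 0.739 and 0.828 CPM in the control libraries, 0.729, 0.521 and 0.586 CPM in the IMQ libraries and 0.628, 0.282 and 0.172 CPM in the LYS libraries. In LYS against control its log2 fold change was -1.35 (SE 0.52, adjusted p = 0.0824).

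B2m (ENSMUSG00000060802, chr2:122147686-122153083), the light chain of all class I molecules, was at 1531, 1442 and 1107 CPM in the control libraries, 706, 816 and 751 CPM in the IMQ libraries and 647, 892 and 956 CPM in the LYS libraries. All IMQ libraries lay below all control libraries, and the log2 fold change was -0.85 (SE 0.18, adjusted p = 0.00394). Tapbp (tapasin), which holds class I molecules at the TAP transporter, was at 125, 140.2 and 132 CPM in the control libraries, 86.4, 98.1 and 81.5 CPM in the IMQ libraries and 109, 115 and 124 CPM in the LYS libraries. IMQ and control did not overlap, and the log2 fold change of -0.59 (SE 0.11, adjusted p = 0.00282) lay at the fold limit, which it missed at -0.51 without IMQ 3, -0.54 without Control 2, -0.55 without IMQ 1 and -0.57 in DESeq2.

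Tap1 (ENSMUSG00000037321, chr17:34187553-34197225), a subunit of the transporter, moved the other way, at 63.9, 52.9 and 74.9 CPM in the control libraries, 84.3, 99.6 and 109 CPM in the IMQ libraries and 81.4, 62.6 and 56.99 CPM in the LYS libraries. Every IMQ library lay above every control library, with a log2 fold change of 0.60 (SE 0.16, adjusted p = 0.0114). The call was lost with library totals alone (0.14, adjusted p = 0.461), and the log2 fold change was 0.48 without Control 2 and 0.53 without IMQ 3. Its partner Tap2 was at 21.8, 21.5 and 25.4 CPM in the control libraries, 22.4, 26.3 and 26.1 CPM in the IMQ libraries and 27.9, 22.7 and 22.1 CPM in the LYS libraries, with overlapping groups and a log2 fold change of 0.11 (SE 0.13, adjusted p = 0.486).

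Nlrc5 (ENSMUSG00000074151, chr8:94434356-94527272), the class I transactivator, was at 29.5, 25.1 and 31.9 CPM in the control libraries, 52.4, 61.6 and 59.8 CPM in the IMQ libraries and 47.1, 41.9 and 34.3 CPM in the LYS libraries. Every IMQ library exceeded every control library, and the log2 fold change was 0.996 (SE 0.13, adjusted p = 0.000393), or 0.54 with library totals alone, under the fold limit. The immunoproteasome subunits were not called, but all 3 were called lower with library totals alone and with limma on log2(FPKM + 0.1). Psmb9, whose promoter overlaps that of Tap1, was at 40.1, 29.7 and 36.9 CPM in the control libraries, 24.4, 21.8 and 27.6 CPM in the IMQ libraries and 27.5, 29.4 and 31.2 CPM in the LYS libraries. Its IMQ values lay below the control values, with a log2 fold change of -0.54 (SE 0.16, adjusted p = 0.0175) inside the fold limit, which it passed at -0.99 with library totals alone, -0.66 without Control 2 and -0.61 without IMQ 3. Psmb10 was at 36.2, 33.5 and 33.4 CPM in the control libraries, 26.2, 27.03 and 28.9 CPM in the IMQ libraries and 29.3, 30.4 and 34.6 CPM in the LYS libraries, without overlap of IMQ and control and with a log2 fold change of -0.34 (SE 0.11, adjusted p = 0.0293). Psmb8 was at 23.1, 22.4 and 31.4 CPM in the control libraries, 18.2, 20.7 and 28.1 CPM in the IMQ libraries and 25.5, 25.3 and 23.8 CPM in the LYS libraries, with overlap and with a log2 fold change of -0.21 (SE 0.21, adjusted p = 0.403). With library totals alone the values were -0.79, adjusted p = 0.000976 for Psmb10 and -0.67, adjusted p = 0.0223 for Psmb8.

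**Figure D1:**
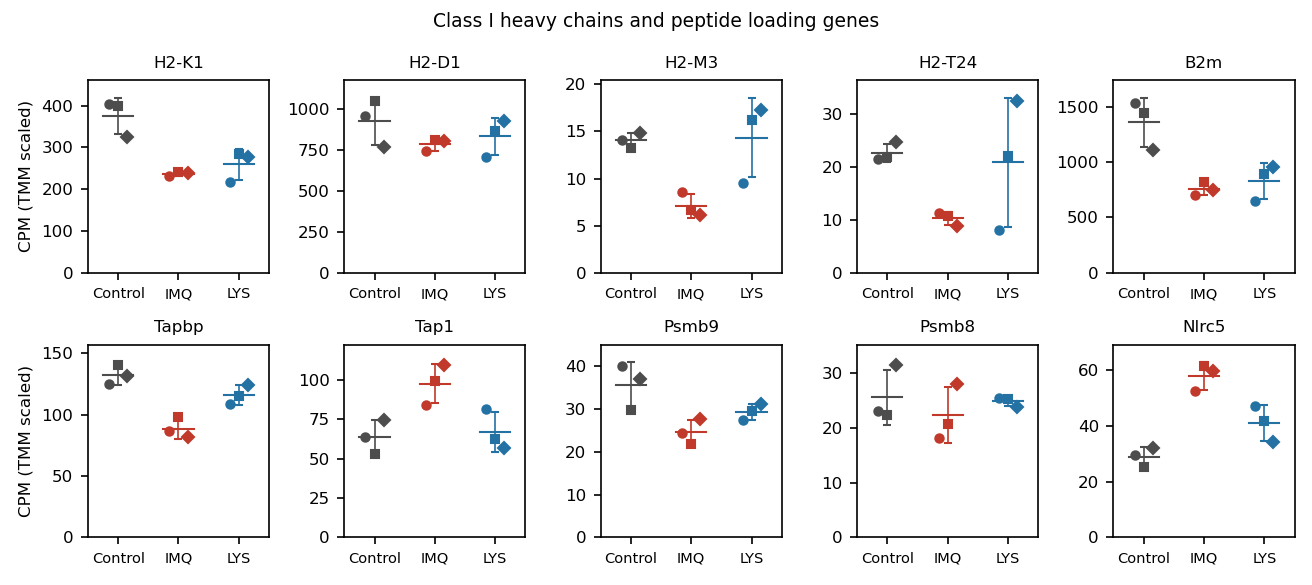
Levels of class I genes in each library, by group, with circle, square and diamond for replicates 1, 2 and 3, a horizontal line for the mean and a bar for the SD (n = 3). H2-K1, B2m and Tapbp lie lower in all IMQ than in all control libraries, and Nlrc5 and Tap1 higher.

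Among class II chains, H2-Aa (ENSMUSG00000036594, chr17:34282744-34287823), the alpha chain of I-A, was at 296, 225 and 254 CPM in the control libraries, 240.1, 186 and 329 CPM in the IMQ libraries and 291, 263 and 282 CPM in the LYS libraries. The IMQ libraries spread on both sides of the control libraries, with a log2 fold change of -0.04 (SE 0.22, adjusted p = 0.88). Its partner H2-Ab1 was at 179, 142 and 155 CPM in the control libraries, 193, 169 and 266 CPM in the IMQ libraries and 271, 166 and 199 CPM in the LYS libraries, with overlap and a log2 fold change of 0.40 (SE 0.19, adjusted p = 0.1). H2-Eb1, the beta chain of I-E, was at 138, 109 and 141 CPM in the control libraries, 141, 124 and 197 CPM in the IMQ libraries and 194, 150.3 and 157 CPM in the LYS libraries, also with overlap, and had a log2 fold change of 0.25 (SE 0.20, adjusted p = 0.304) that did not pass.

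H2-DMb2 (ENSMUSG00000037548, chr17:34143307-34151555), a beta chain of the peptide editor, was the one class II chain called, at 8.65, 6.19 and 7.74 CPM in the control libraries, 14.2, 12.96 and 18.1 CPM in the IMQ libraries and 17.7, 9.38 and 10.6 CPM in the LYS libraries. All IMQ libraries lay above the control libraries, with a log2 fold change of 0.996 (SE 0.20, adjusted p = 0.00345), and with library totals alone the value was 0.54 (adjusted p = 0.0566). H2-DMb1, the neighbouring beta chain, was at 14.9, 11.2 and 11.8 CPM in the control libraries, 9.17, 5.14 and 11.4 CPM in the IMQ libraries and 13.96, 7.51 and 13.4 CPM in the LYS libraries. It overlapped and had a log2 fold change of -0.56 (SE 0.29, adjusted p = 0.123), and these near copies can share reads. H2-DMa, the alpha chain, was at 38.8, 27.3 and 31.2 CPM in the control libraries, 35.2, 29.7 and 48.4 CPM in the IMQ libraries and 49.2, 41.6 and 44.6 CPM in the LYS libraries, with overlap and a log2 fold change of 0.21 (SE 0.21, adjusted p = 0.394). The chains of the inhibitor H2-O were near the limit of counting. H2-Ob was at 1.26, 1.11 and 1.90 CPM in the control libraries, 1.21, 0.745 and 0.952 CPM in the IMQ libraries and 1.33, 1.02 and 0.860 CPM in the LYS libraries, with a log2 fold change of -0.54 (SE 0.37, adjusted p = 0.237), and H2-Oa, too low to be tested in IMQ against control, at 0.483, 0.508 and 0.195 CPM in the control libraries, 0.790, 1.19 and 0.659 CPM in the IMQ libraries and 0.907, 0.678 and 0.745 CPM in the LYS libraries.

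Ciita (ENSMUSG00000022504, chr16:10480059-10528418), the class II transactivator, was at 16.6, 7.11 and 12.3 CPM in the control libraries, 26.6, 19.4 and 26.96 CPM in the IMQ libraries and 35.8, 28.9 and 28.8 CPM in the LYS libraries. All IMQ libraries lay above all control libraries, with a log2 fold change of 1.01 (SE 0.29, adjusted p = 0.0176), and with library totals alone the call was lost (adjusted p = 0.149). Cd74 was at 475, 378 and 469 CPM in the control libraries, 456, 341 and 587 CPM in the IMQ libraries and 554, 509 and 535 CPM in the LYS libraries, with overlap and a log2 fold change of 0.06 (SE 0.22, adjusted p = 0.828). Ctss (cathepsin S), which trims the invariant chain, was at 186, 136 and 109 CPM in the control libraries, 118, 109 and 128 CPM in the IMQ libraries and 126, 262 and 289 CPM in the LYS libraries, with a log2 fold change in IMQ against control of -0.28 (SE 0.19, adjusted p = 0.224).

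**Figure D2:**
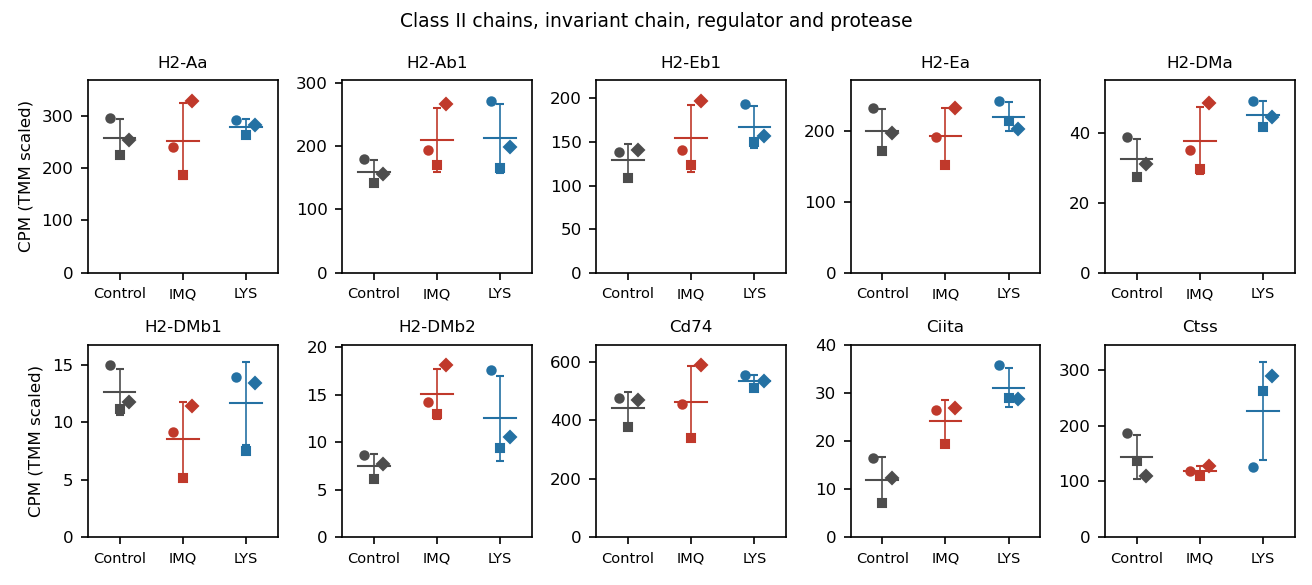
Levels of class II genes in each library, by group, with circle, square and diamond for replicates 1, 2 and 3, a horizontal line for the mean and a bar for the SD (n = 3). Ciita and H2-DMb2 lie higher in all IMQ than in all control libraries, and the H2-A and H2-E chains overlap.

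To compare the classes within a library, the summed FPKM of H2-K1 and H2-D1 was divided by that of H2-Aa, H2-Ab1 and H2-Eb1, a ratio that needs no scaling between libraries. The log2 ratio was 1.21, 1.67 and 1.03 in the control libraries, 0.79, 1.15 and 0.43 in the IMQ libraries and 0.29, 1.03 and 0.96 in the LYS libraries. The highest and lowest libraries were Control 2 and LYS 1. The means were 1.30 ± 0.329, 0.79 ± 0.361 and 0.76 ± 0.407 (SD, n = 3), and the ranges of the groups overlapped. The difference of IMQ minus control was -0.51 and ran from -0.69 to -0.33 over 10 alternatives. It was -0.54 for LYS minus control and -0.03 for LYS minus IMQ, and the latter ran from -0.21 to 0.21. Without LYS 1 these were -0.31 and 0.21, so that the sign of the LYS minus IMQ difference turned. H2-Ea was also added to the class II sum, a choice made after seeing the data. The mean log2 ratios were then 0.31 ± 0.332 in control, -0.08 ± 0.341 in IMQ and -0.15 ± 0.371 in LYS libraries. As log2 fold changes, the class I median lay -0.39 and the class II median 0.12 from the median of all genes in IMQ against control, and these distances were -0.40 and 0.12 with library totals alone. Over all alternatives the class I distance ran from -0.46 to -0.24. The class II distance ran from -0.01 without IMQ 3, where its sign turned, to 0.37 without IMQ 2, and was 0.28 in DESeq2. These members were chosen with earlier results known, and no p is given for the classes.

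**Figure D3:**
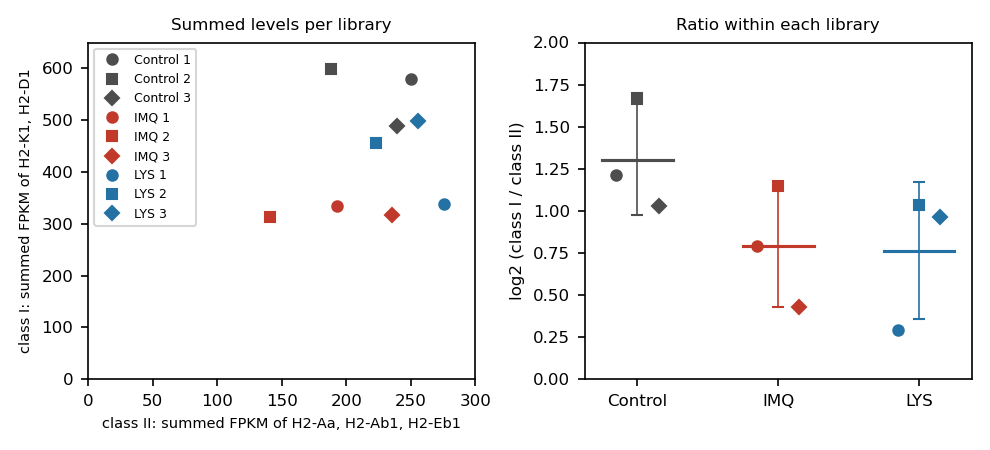
Left, summed FPKM of the class I chains (vertical) against the class II chains (horizontal) in each library. Right, log2 ratio of summed class I (H2-K1, H2-D1) to class II (H2-Aa, H2-Ab1, H2-Eb1) FPKM in each library, by group, with the mean (line) and SD (bar, n = 3). Grey, red and blue stand for Control, IMQ and LYS, the IMQ and LYS means lie below the control mean, and the ranges overlap.

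Of the costimulatory genes, Cd80 (ENSMUSG00000075122, chr16:38455561-38496335), a ligand of CD28 and CTLA-4, was at 2.85, 2.12 and 2.05 CPM in the control libraries, 6.19, 13.3 and 13.9 CPM in the IMQ libraries and 8.37, 5.59 and 5.10 CPM in the LYS libraries. All IMQ libraries exceeded all control libraries, and the log2 fold change of 2.23 (SE 0.34, adjusted p = 0.000793) was the highest among the members. Cd86, which binds the same receptors, was at 15.9, 12.6 and 8.91 CPM in the control libraries, 16.1, 16.8 and 17.4 CPM in the IMQ libraries and 18.9, 18.98 and 21.4 CPM in the LYS libraries. It did not overlap, and its log2 fold change of 0.42 (SE 0.21, adjusted p = 0.116) did not pass. Cd40, the receptor of CD40 ligand on T cells, was at 2.61, 3.79 and 2.53 CPM in the control libraries, 1.09, 1.56 and 2.49 CPM in the IMQ libraries and 2.79, 3.73 and 4.13 CPM in the LYS libraries, lower in all IMQ than in all control libraries, with a log2 fold change of -0.81 (SE 0.36, adjusted p = 0.0844) that did not pass. Cd40 was called lower with library totals alone (-1.26, adjusted p = 0.0121) and without IMQ 3 (-1.16, adjusted p = 0.0316), and Cd86 higher without Control 1 (0.62, adjusted p = 0.0428).

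Of the dendritic cell genes, Cd209a (ENSMUSG00000031494, chr8:3743397-3748984), a lectin of dermal dendritic cells, was at 9.32, 10.5 and 12.2 CPM in the control libraries, 2.98, 0.670 and 1.83 CPM in the IMQ libraries and 6.77, 8.36 and 5.73 CPM in the LYS libraries. All IMQ libraries lay far below the control libraries, with a log2 fold change of -2.52 (SE 0.42, adjusted p = 0.0013), the lowest among the members. Of the other cDC2 markers, Clec10a went from 23.8 ± 3.97 FPKM in control to 4.68 ± 0.305 in IMQ skin and Mgl2 from 11.2 ± 3.07 to 0.885 ± 0.361, while Itgax went the other way, from 1.69 ± 0.149 to 4.23 ± 1.22 FPKM (SD, n = 3). Their part in the result was not tested. Cd207 (langerin), the lectin of Langerhans cells, was at 13.1, 11.7 and 15.2 CPM in the control libraries, 17.9, 20.6 and 28.1 CPM in the IMQ libraries and 22.4, 11.7 and 6.94 CPM in the LYS libraries. The IMQ libraries lay above the control libraries with a log2 fold change of 0.72 (SE 0.20, adjusted p = 0.0145), and the call was lost with all 9 libraries fitted together (adjusted p = 0.109), with library totals alone and without Control 1 (0.0522), Control 2 (0.0532) or, on fold, IMQ 3 (0.54).

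Flt3, the receptor for the growth factor of dendritic cells, was at 3.77, 2.54 and 4.04 CPM in the control libraries, 6.74, 3.43 and 6.59 CPM in the IMQ libraries and 9.14, 4.69 and 3.27 CPM in the LYS libraries, with overlap and a log2 fold change of 0.69 (SE 0.33, adjusted p = 0.0973). Zbtb46, a transcription factor of conventional dendritic cells, had a log2 fold change of -0.42 (SE 0.26, adjusted p = 0.191). Batf3, a factor of the cross-presenting cDC1, and Wdfy4, needed for cross-presentation by these cells, had values of 0.43 (SE 0.31, adjusted p = 0.267) and -0.20 (SE 0.15, adjusted p = 0.288). None of these 4 was called in IMQ against control, but some were under other settings. Zbtb46 was called lower with library totals alone (-0.85, adjusted p = 0.0325), with limma on log2(FPKM + 0.1) and without IMQ 1 (-0.69, adjusted p = 0.0334). Wdfy4 was called lower with library totals alone (-0.64, adjusted p = 0.0123) and the same limma fit, and Flt3 higher without IMQ 2 (0.96, adjusted p = 0.026).

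**Figure D4:**
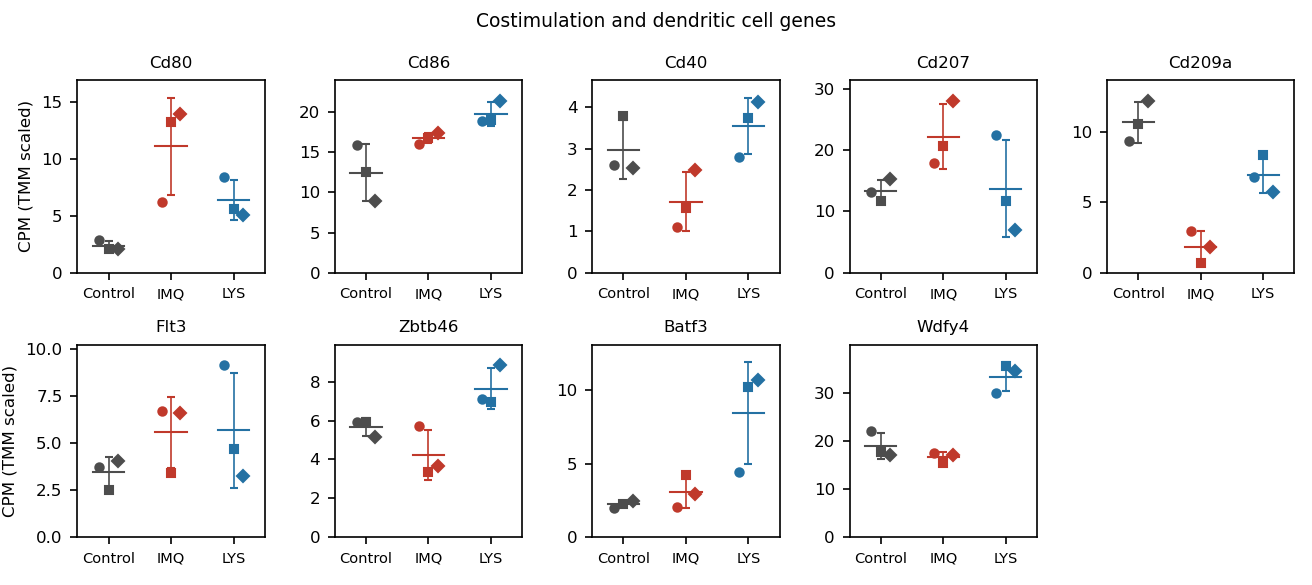
Levels of costimulatory and dendritic cell genes in each library, by group, with circle, square and diamond for replicates 1, 2 and 3, a horizontal line for the mean and a bar for the SD (n = 3). The mean of Cd80 is highest in IMQ and that of Cd209a lowest, and Batf3 and Wdfy4 are highest in LYS.

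Which members were called, and the balance of rises and falls, depended on the scaling. The TMM factors were 1.10 to 1.20 in the control group, 0.790 to 0.915 in the IMQ group and 0.978 to 1.10 in the LYS group. With library totals alone, the median of all genes in IMQ against control was -0.51, and among the members 2 rose (Cd80 and H2-K2) and 21 fell, 23 of the 45 tested, against 57.9% of all genes (15% higher and 42.9% lower). Of class I genes 1 then rose and 15 fell, and of class II genes 0 rose and 2 fell (Ctss and H2-DMb1).

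Of 16 other genes of the class I pathway, 2 rose and 0 fell in IMQ against control, namely Psme2, a subunit of the proteasome activator PA28, at 0.83 (adjusted p = 0.000751), and Ifngr2, a chain of the interferon gamma receptor, at 0.65 (adjusted p = 0.000733). These 2 of 16 stand against the 51% of all genes called. Of 15 other genes of the class II pathway, 4 rose and 5 fell, a share near that of all genes. Ctsd and Ctsl, lysosomal proteases, rose by 1.98 (adjusted p = 0.000179) and 1.16 (adjusted p = 0.00153), and Ifi30, the reductase of antigen disulphides, by 0.85 (adjusted p = 0.000865) on the log2 scale. Nfya, a subunit of the CCAAT factor NF-Y, had a log2 fold change of 0.72 (adjusted p = 0.00137) and its partner Nfyb one of -0.79 (adjusted p = 0.00236). The proteases Ctsb and Lgmn had log2 fold changes of -0.72 (adjusted p = 0.0185) and -0.68 (adjusted p = 0.00812), and Cd82 and Marchf1, the ligase that removes class II from the surface, -0.80 (adjusted p = 0.000567) and -1.14 (adjusted p = 0.00225).

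**Figure D5:**
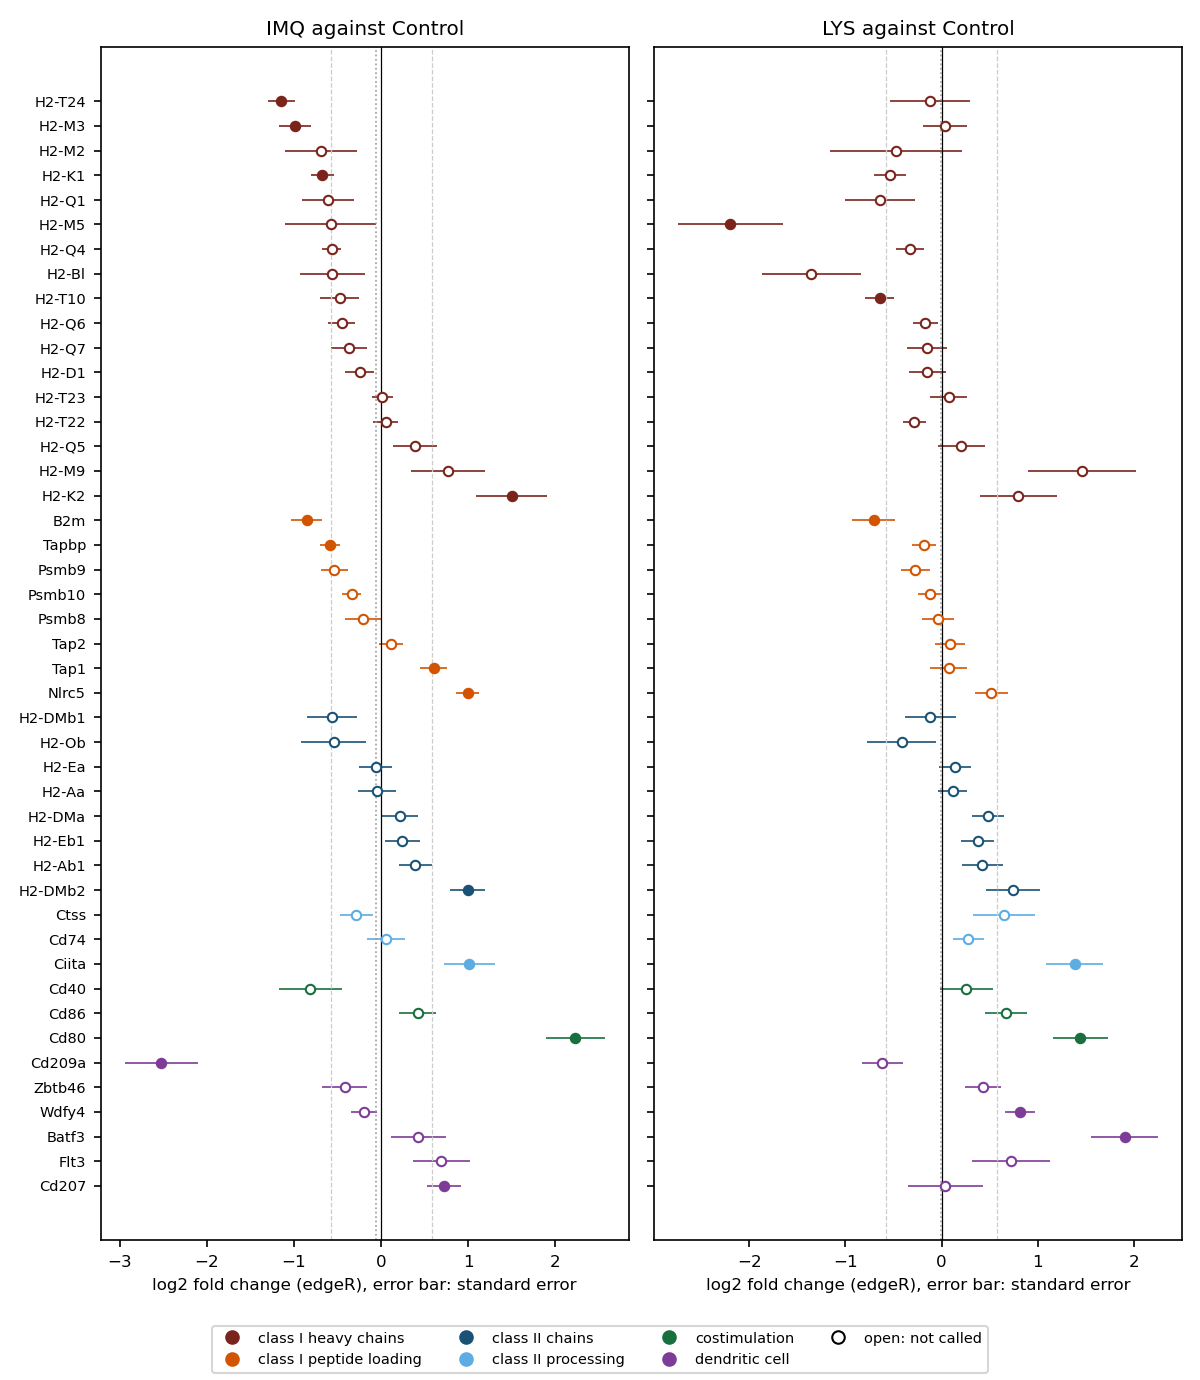
Log2 fold changes of the 45 members tested in IMQ against Control (left) and their values in LYS against Control (right), with bars for the standard error, filled points for called genes, a dotted line for the median of all genes and dashed lines at the fold limit of 0.58. Cd80 is highest and Cd209a lowest in IMQ against Control.

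The comparison of LYS with IMQ skin asks what differed with the decoction given by gavage. The sources name no gavage for the IMQ group, so the decoction and the gavage cannot be told apart. Here edgeR called 0 of 15460 genes (0%) and 0 of the 45 members tested. Before adjustment, 5435 genes (35.2%) and 12 members (26.7%) had a p under 0.05. Of these members 10 were higher and 2 (Nlrc5 and Tap1) lower, against 19.3% and 15.9% of all genes. The groups did not overlap in 13 members (28.9%), against 38.9% of all genes. DESeq2 called 3345 genes (12.2%) and 7 members (Batf3, Cd209a, Cd40, Ctss, H2-M3, Wdfy4 and Zbtb46), all higher, and without LYS 1 edgeR called 4262 genes (26.8%) and 8 members, of which Batf3, Cd209a, Ctss, H2-M3, H2-T24 and Wdfy4 were higher and Cd207 and Tap1 lower. The median log2 fold change was 0.21 for class I and 0.23 for class II genes, and 0.04 for all genes. The sign of the difference between the classes (-0.02) depended on the setting, from -0.23 to 0.08.

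Wdfy4 (ENSMUSG00000051506, chr14:32959547-33185508) came nearest to the threshold. It was at 22.1, 17.6 and 17.1 CPM in the control libraries, 17.4, 15.4 and 16.995 CPM in the IMQ libraries and 29.9, 35.5 and 34.5 CPM in the LYS libraries, so that all LYS libraries exceeded all others, with a log2 fold change of LYS against IMQ of 1.07 (SE 0.14, adjusted p = 0.0591). Batf3 (ENSMUSG00000026630, chr1:191097847-191108945) was at 2.03, 2.26 and 2.48 CPM in the control libraries, 2.06, 4.24 and 2.93 CPM in the IMQ libraries and 4.47, 10.2 and 10.7 CPM in the LYS libraries, also without overlap, with 1.54 (SE 0.42, adjusted p = 0.0661). LYS 1 was the lowest of the LYS libraries in both genes. Among the other cDC1 markers, Xcr1 had mean levels of 0.549, 0.324 and 0.543 FPKM in control, IMQ and LYS skin. Clec9a was at 0.526, 0.212 and 0.611, Irf8 at 3.76, 3.27 and 7.13 and Itgae at 2.09, 3.47 and 4.40 FPKM. The part of these cells in the result was not tested. Zbtb46 was at 5.94, 5.91 and 5.16 CPM in the control libraries, 5.71, 3.35 and 3.66 CPM in the IMQ libraries and 7.12, 6.95 and 8.83 CPM in the LYS libraries, with a log2 fold change of 0.91 (SE 0.28, adjusted p = 0.0788). Cd209a in the LYS libraries lay between the other groups, with a log2 fold change against IMQ of 1.97 (SE 0.49, adjusted p = 0.0609). Its adjusted p was 0.0015 in DESeq2 and 0.0346 without LYS 1.

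H2-M3 was higher in all LYS than in all IMQ libraries, with a log2 fold change of 1.08 (SE 0.29, adjusted p = 0.0644), and its adjusted p was 0.01 without LYS 1. H2-K1 and B2m overlapped between LYS and IMQ, with log2 fold changes of 0.20 (SE 0.15, adjusted p = 0.382) and 0.21 (SE 0.20, adjusted p = 0.494). Nlrc5 and Tap1 were lower in all LYS than in all IMQ libraries, with log2 fold changes of -0.43 (SE 0.14, adjusted p = 0.0817) and -0.48 (SE 0.16, adjusted p = 0.0905). Ctss overlapped, with LYS 1 among the IMQ libraries, and its log2 fold change was 1.001 (SE 0.31, adjusted p = 0.0793), or 1.29 (adjusted p = 0.00584) without LYS 1. Of the class II chains, H2-Aa, H2-Ab1 and H2-Eb1 overlapped, with log2 fold changes of 0.21 (SE 0.22, adjusted p = 0.514), 0.08 (SE 0.24, adjusted p = 0.835) and 0.18 (SE 0.20, adjusted p = 0.553).

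The comparison of LYS with control skin shares its libraries with the other comparisons. In it, 8 of 47 members were called (17%), against 28% of all 16003 genes. Batf3, Cd80, Ciita, H2-M11 and Wdfy4 rose, and B2m, H2-M5 and H2-T10 fell, while 15.1% of all genes rose and 12.9% fell. The groups did not overlap in 23 members (48.9%), against 50.3% of all genes. Of 26 class I genes tested 1 rose and 3 fell, with a median of -0.15. Of 12 class II genes 1 rose and 0 fell, with a median of 0.40, and the median of all genes was -0.01.

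The log2 fold changes of LYS against control were 1.90 (SE 0.35, adjusted p = 0.0066) for Batf3, 0.82 (SE 0.15, adjusted p = 0.00744) for Wdfy4, 1.44 (SE 0.28, adjusted p = 0.00887) for Cd80 and 1.38 (SE 0.29, adjusted p = 0.0117) for Ciita, each without overlap of the groups and each called without LYS 1 too. H2-M11, a nonclassical class I chain, was near the limit of counting, at 0.0483, 0 and 0.146 CPM in control and 1.05, 0.734 and 0.917 CPM in LYS libraries. Against a floor of 3 counts per library it was at least 6.28-fold higher in LYS. B2m was lower by a log2 fold change of -0.71 (SE 0.22, adjusted p = 0.044), and this call was lost without Control 1 (0.156), Control 2 (0.127), LYS 1 (0.0535) or LYS 2 (0.109). H2-T10 was at 14.8, 17.1 and 17.5 CPM in the control libraries, 9.47, 10.4 and 15.97 CPM in the IMQ libraries and 10.5, 10.5 and 10.7 CPM in the LYS libraries, the LYS libraries all below the control libraries, as for H2-M5. H2-T10 and H2-M5 are nonclassical chains, and H2-T10 is a polymorphic pseudogene in the annotation. They had log2 fold changes of -0.64 (SE 0.15, adjusted p = 0.0163) and -2.19 (SE 0.54, adjusted p = 0.0202), described together after their values were seen. The adjusted p of H2-T10 was 0.0554 without Control 2, 0.0568 without Control 3 and 0.064 without LYS 2. The adjusted p of H2-M5 was 0.0743 without Control 1, 0.0653 without Control 3 and 0.0537 without LYS 2. These 3 calls were also lost with the replicate number as a block. Without LYS 1, Ctss (0.95, adjusted p = 0.0131) and H2-M9 (1.92, adjusted p = 0.00163) were called higher as well, and H2-Bl (-1.96, adjusted p = 0.0249) and H2-M2 lower. H2-M9 was also called in DESeq2 and H2-Bl with limma on log2(FPKM + 0.1). Wdfy4 lost its call with limma on log2(FPKM + 1). Cd86 was called higher without Control 1 (0.87, adjusted p = 0.047), H2-DMa without Control 1 (0.61, adjusted p = 0.0488) and Nlrc5 without LYS 3 (0.64, adjusted p = 0.0224). Cd86 was also called higher in DESeq2 (adjusted p = 0.0324) and with all 9 libraries (adjusted p = 0.0283). H2-K1 had a log2 fold change of -0.53 (SE 0.17, adjusted p = 0.0449), inside the fold limit. It was called lower with library totals alone (-0.66, adjusted p = 0.0263) and in both limma fits. Cd209a had one of -0.62 (SE 0.21, adjusted p = 0.0582). It was called lower in DESeq2, with library totals alone (-0.76, adjusted p = 0.0333) and in both limma fits.

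Of the other genes of the pathways, Irf1, a transcription factor of interferon-induced genes, rose in LYS against control by 0.93 (adjusted p = 0.00604) on the log2 scale, the 1 of 16 class I pathway genes called, against 28% of all genes. Of the 15 class II pathway genes 4 rose (Ctsd, Cd37, Ifi30 and Nfya) and 1 fell (Nfyb), a share near the 28% of all genes. By edgeR 0 of either list were called in LYS against IMQ.

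The members that were not tested had too few counts. They were 10 in IMQ against control (8 class I heavy chains and 2 class II chains), with at most 16 counts in a library, 10 in LYS against IMQ, with at most 31, and 8 in LYS against control, with at most 11. H2-M1, H2-M10.2, H2-M6-ps, H2-Q10, H2-Q2, H2-T-ps, H2-T3 and H2-Eb2 were tested in none of the comparisons.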

How the data were processed

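RNA of whole back skin was measured by RNA-seq in 9 libraries (3 each of Control, IMQ and LYS). Per the submitters' processing notes, the authors used HISAT2, HTSeq 0.13.5 and GRCm38, and the counting options and annotation release are not given in the sources used here. The authors deposited raw read counts per gene and FPKM, scaled by them to gene length and to the library total. Gene lengths matched GENCODE M21 for all 55 members. Strand use in counting is not stated.

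Counts were filtered (filterByExpr), scaled by TMM and tested with the quasi-likelihood test of edgeR 4.0.16 (R 4.3.3), using the 6 libraries of each pair of groups, with Benjamini-Hochberg adjustment over all genes tested. Genes were called at an adjusted p under 0.05 with an absolute log2 fold change over 0.58. The test was run on simulated data first. Alternatives were DESeq2 1.42.0, limma 3.58.1 on log2(FPKM + 1) and log2(FPKM + 0.1), library totals or RLE scaling, no filter, all 9 libraries, a fold limit of log2 1, the replicate block and leaving out each replicate. Adding H2-Ea to the class ratio was chosen after seeing the data.

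The members and lists were chosen with earlier results of these data known. Values per library were given for 33 genes listed by name, where the table held them, and for the tested members at either end of the log2 fold changes of a comparison (3 at each end). The others are given by counts and ranges. Other genes were singled out after their values were seen, as stated there. Replicate numbers do not come with a stated pairing. Promoter windows came from RefSeq.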

Additional observations from a re-analysis of the deposited data

How the results depend on the processing

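Of 252 alternatives of the main counts and class differences, 212 stayed within the spread or within 1.5 times and 40 moved. For single members, 1424 of 1540 alternatives kept the side of the threshold (81 of them with a change of sign, past the threshold in neither), 77 passed it newly, 39 no longer passed it and 0 reversed a call. In IMQ against control, members called numbered 23 with library totals alone (57.9% of all genes called), 24 with limma on log2(FPKM + 0.1) (58.6%) and 5 at a fold limit of log2 1 (36.1%). Class I genes called numbered 16, 17 and 2 in the same order, and 14 with limma on log2(FPKM + 1) (45.9% of all genes). Class II genes called numbered 1 at the higher limit. In LYS against IMQ, DESeq2 called 3345 genes, 7 members, 1 class I and 1 class II gene, no filter 2419 (8.83%), 5, 1 and 1, and all 9 libraries together 3040 genes (18.5%), 5 members and 1 class I gene. In LYS against control, a limit of log2 1 gave 2910 genes (18.2%), 5 members and 2 class I genes. Leaving out 1 replicate gave 7372 to 8894 genes (45% to 54.2%), 12 to 16 members, 8 to 11 class I and 2 to 3 class II genes in IMQ against control. In the same order it gave 0 to 4262 (0% to 26.8%), 0 to 8, 0 to 3 and 0 to 1 in LYS against IMQ. It gave 2579 to 5072 (15.8% to 30.8%), 5 to 11, 1 to 6 and 1 to 2 in LYS against control. In LYS against IMQ, among these only the fits without LYS 1 (4262 genes, 8 members) or IMQ 1 (1873 genes, 3 members) made calls, and the cause was not tested.

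The deviations from the group means had correlations of -0.47 to 0.20 between same-numbered samples and -0.30 to 0.48 between the others. With 3 libraries per group, these values cannot decide whether the numbers pair samples. With the replicate block, 8044 (50.4%), 0 (0%) and 3126 (19.5%) genes and 13, 0 and 5 members were called in IMQ against control, LYS against IMQ and LYS against control, with 1 class I gene in the last.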
